A study of Homo sapiens with 20 samples.

Results

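The serum amyloid A and complement genes described here are SAA1, SAA2, C1R, C1S, C3, CFB, CFI, CD55 and CD59, that is, 9 of the 24196 genes listed in an RNA-seq table of orthotopic ovarian tumors. They were taken by symbol, with earlier results on the difference between the treatment groups in this table already known. The gluconate against PBS values of these 9 genes are therefore given as a description, and no p-value on this contrast is given for any of them. The tumors grew from OVCAR8 cells, an established human line of ovarian cancer, in the ovarian fat pad of NSG mice, which lack mature lymphocytes and hemolytic complement. In the study's treatment experiment, mice that were 6 weeks old at injection received PBS or sodium gluconate at 1 mg/kg i.p. weekly over 35 days, and PBS was thus the only treatment of the control group. The labels give 4 tumors per group, and all 8 came from the same cell line. The other 12 libraries of the series, from knockout cells and their controls, were not analysed here.

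Serum amyloid A proteins are small apolipoproteins of the acute-phase response, made mostly by the liver and induced by cytokines such as IL-6 and IL-1 through STAT3, NF-kB and C/EBP factors. Complement is a cascade of plasma proteins. The proteases C1r and C1s start the classical pathway, C3 is the central component that all pathways cleave, and factor B forms the alternative pathway convertase with activated C3. Factor I cuts activated C3 down, CD55 speeds the decay of convertases on the cell's own surface, and CD59 blocks the membrane attack complex. Epithelial tumor cells are known to make several of these proteins themselves, and interferon-gamma is a known inducer of C1R, C1S, C3 and CFB.

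Values are FPKM, fragments scaled to the length of the gene and to the fragments of the whole library. The steps between the FPKM values of a gene gave the fragments behind each value. PBS replicate 4 rested on 3953206 fragments and the other 7 libraries on 39325749 to 46551535, so that it was 9.95 to 11.8 times shallower. It listed 15514 genes above 0, against 19991 to 20251 in the others. Its Pearson's r with the other libraries across the genes tested was 0.938 to 0.951, where the other 7 reached 0.980 to 0.994 with each other. Because of this, the differences of the 9 genes and of the other genes described are given with and without PBS replicate 4.

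The carcinoma identity of the tumors was checked with 9 epithelial markers, of which 7 were at 1 FPKM or more in every library, among them KRT7, KRT8, KRT18, EPCAM and PAX8. KRT19 and MUC16 were below 0.5 FPKM in every library. The table holds human gene symbols, and transcripts of the mouse host were not analysed here.

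SAA1 and SAA2 are neighbors on chromosome 11, SAA1 on the plus strand from 18266174 to 18269977 and SAA2 on the minus strand from 18239223 to 18248643 (GRCh38, GENCODE 29). Their coding sequences have the same length of 369 bases with the stop codon, and 11 of these bases differ, an identity of 97.0%. The stretch from base 205 to base 324, counted from the A of the start codon, holds 10 of the 11 differences. It is shown because most of the coding differences between these genes lie in it, with the differing bases in capitals.
SAA1: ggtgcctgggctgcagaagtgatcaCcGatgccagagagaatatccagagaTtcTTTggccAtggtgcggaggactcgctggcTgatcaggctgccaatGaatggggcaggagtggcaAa
SAA2: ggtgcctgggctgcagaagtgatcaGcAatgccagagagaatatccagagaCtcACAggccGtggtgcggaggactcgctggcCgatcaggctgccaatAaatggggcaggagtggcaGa
Of all windows of 150 bases, the length of a read, in the SAA1 coding sequence, 16.8% also occur unchanged in a SAA2 transcript. The gene lengths behind the FPKM values were 665 bases for SAA1 and 2371 bases for SAA2, so that most of the sequence counted for SAA2 lies outside the coding part compared here. Fragments from shared windows may have been assigned to either gene, and how the authors' counting treated them is not given in the sources used here.

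C1S and C1R lie side by side on chromosome 12, C1S on the plus strand from 6988259 to 7071032 and C1R on the minus strand from 7080199 to 7092607. CFB spans 31945650 to 31952084 of chromosome 6 and CD55 spans 207321376 to 207386804 of chromosome 1, both on the plus strand. On the minus strand, C3 spans 6677704 to 6730562 of chromosome 19, CFI spans 109740694 to 109802179 of chromosome 4, and CD59 spans 33703010 to 33736491 of chromosome 11.

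RefSeq promoters (GRCh38.p14) were matched for 5 of the 9 genes, CD55, CFI, CFB, CD59 and C1R, with 9 annotated starts. The 250 bases before each start were searched on both strands for motifs of the factors named above. TTCNNNGAA, a STAT motif, was found before CFB, CD59 and 1 of the C1R starts, and in 6.57% of all 35116 promoters. Before CFB and C1R the match also fitted the stricter TTCCNGGAA, which 0.968% of all promoters hold and which overlaps the first motif. GAAANNGAA, an IRF motif, was found only before CFB and in 6.88% of all promoters. GGGNNTTTC, an NF-kB motif, was found before 0 of the 9 starts and in 4.16% of all promoters. TTNNGCAA, a C/EBP motif, was found before both C1R starts and 1 CD59 start, and in 9.05% of all promoters. CFB and C1R are shown because the stricter STAT motif was found before both, with the STAT and IRF motif matches in capitals. The windows before CD59, which held the first motif, are not shown. The CFB sequence is chr6:31945845-31946094 on the plus strand, where the IRF match begins 139 bases and the STAT match 92 bases before the start. The C1R sequence is chr12:7091894-7092143 on the minus strand, where the STAT match begins 86 bases before the start.
CFB: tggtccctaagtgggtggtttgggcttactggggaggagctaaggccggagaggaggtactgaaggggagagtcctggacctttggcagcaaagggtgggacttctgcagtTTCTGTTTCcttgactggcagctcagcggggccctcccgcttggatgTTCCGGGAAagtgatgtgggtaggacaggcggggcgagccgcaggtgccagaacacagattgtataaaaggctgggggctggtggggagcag
C1R: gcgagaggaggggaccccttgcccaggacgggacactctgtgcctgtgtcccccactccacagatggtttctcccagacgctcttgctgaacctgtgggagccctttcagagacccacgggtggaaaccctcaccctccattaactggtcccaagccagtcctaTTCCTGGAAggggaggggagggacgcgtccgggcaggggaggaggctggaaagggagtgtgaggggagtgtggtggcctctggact
These matches describe the letters of the windows, and no binding was measured.

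SAA1, the main inducible serum amyloid A gene, was higher in every gluconate tumor than in any PBS tumor. Its FPKM was 2.60, 1.68, 2.37 and 1.52 in PBS replicates 1 to 4 and 4.03, 3.23, 3.44 and 6.51 in gluconate replicates 1 to 4. The group means were 2.05 ± 0.526 FPKM (SD, n = 4) and 4.30 ± 1.51 FPKM (SD, n = 4), which differ by a log2 fold change of 1.01 with a standard error of 0.25 on the log2(FPKM + 0.1) scale. The groups did not overlap, and gluconate replicate 4 stood above the other gluconate tumors. The value of PBS replicate 4 came from 4 fragments, with an exact 95% Poisson interval of 0.415 to 3.90 FPKM that reaches into the gluconate values. Such intervals cover counting error only. The other 7 libraries had 52 to 185 SAA1 fragments. Without PBS replicate 4, the PBS tumors had at most 2.60 FPKM, still below the lowest gluconate tumor, and the log2 fold change was 0.89.

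SAA2, the close paralog of SAA1, was near the limit of detection. Its fragments numbered 16, 7, 15 and 0 in PBS replicates 1 to 4 and 9, 11, 1 and 26 in gluconate replicates 1 to 4. These gave 0.148, 0.0634, 0.159 and 0 FPKM in PBS tumors and 0.0941, 0.108, 0.0107 and 0.257 FPKM in gluconate tumors. The groups overlapped, with the highest and the lowest value above 0 both among the gluconate tumors. In PBS replicate 4, a count of 0 allows up to 0.320 FPKM (3 fragments), more than any library's value, so that this library gives no information on SAA2. Leaving it out turned the difference between the mean log2(FPKM + 0.1) values from 0.15 to -0.13. The ratio of SAA1 to SAA2 fragments was 4.20 to 7.43 in PBS replicates 1 to 3 and 7.12 to 90.0 in the gluconate tumors, of which the highest rests on 1 SAA2 fragment.

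**Figure D1:**
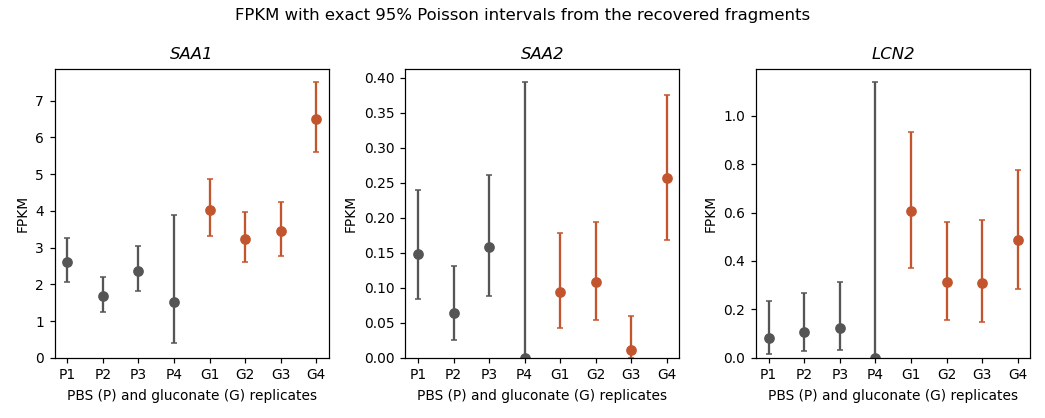
FPKM (vertical axis) of SAA1, SAA2 and LCN2 in the 8 libraries (horizontal axis), with PBS tumors in gray and gluconate tumors in orange and bars for exact 95% Poisson intervals from the recovered fragments. The interval of PBS replicate 4 for SAA1, 0.415 to 3.90 FPKM, is the widest of that panel, and the gluconate tumors sit at 3.23 FPKM or above.

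C1R and C1S, the proteases of the C1 complex, moved together and had higher means in gluconate tumors. C1R was at 60.7, 64.2, 40.0 and 16.7 FPKM in PBS replicates 1 to 4 and at 61.4, 72.0, 80.0 and 95.5 FPKM in gluconate replicates 1 to 4. C1S was at 24.6, 25.4, 18.6 and 9.34 FPKM in the PBS tumors and at 25.8, 30.3, 33.7 and 42.0 FPKM in the gluconate tumors. For C1R, gluconate replicate 1 lay below PBS replicate 2, so that the groups overlapped, whereas for C1S they did not. The C1S gap was small, between 25.4 FPKM in PBS replicate 2 and 25.8 FPKM in gluconate replicate 1, whose Poisson intervals of 24.5 to 26.2 and 24.9 to 26.7 FPKM overlap. C1R had means of 45.4 ± 21.9 and 77.2 ± 14.4 FPKM (SD, n = 4 each), and its log2 fold change was 0.92 (standard error 0.38). For C1S the means were 19.5 ± 7.41 and 32.9 ± 6.84 FPKM (SD, n = 4 each) and a log2 fold change of 0.83 (standard error 0.30). PBS replicate 4 was the lowest library for both genes, and without it the log2 fold changes were 0.50 for C1R and 0.51 for C1S. The ratio of C1R to C1S FPKM within a library was 2.27 to 2.38 in gluconate tumors, 2.15 to 2.53 in PBS replicates 1 to 3 and 1.79 in PBS replicate 4.

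C3, the central complement component, was at 10.9, 8.86, 6.16 and 1.93 FPKM in PBS replicates 1 to 4 and at 10.7, 8.79, 14.2 and 18.5 FPKM in gluconate replicates 1 to 4. Gluconate replicates 3 and 4 lay above every PBS tumor, while gluconate replicates 1 and 2 lay within the range of PBS replicates 1 to 3. The means were 6.95 ± 3.86 FPKM and 13.0 ± 4.26 FPKM (SD, n = 4 each). Its log2 fold change of 1.09 (standard error 0.48) was the highest of the 9 genes with all libraries, and it was 0.57 without PBS replicate 4, where C3 had 40 fragments and an interval of 1.38 to 2.63 FPKM.

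CFB encodes factor B, the protease subunit of the alternative pathway convertase. It was at 67.2, 50.5, 31.3 and 30.8 FPKM in PBS replicates 1 to 4 and at 62.2, 45.1, 67.5 and 107 FPKM in gluconate replicates 1 to 4. The groups overlapped widely, with gluconate replicate 2 below PBS replicates 1 and 2. Only gluconate replicate 4 lay more than 1 FPKM above the highest PBS tumor. The means were 44.9 ± 17.4 and 70.5 ± 26.2 FPKM (SD, n = 4 each), with a log2 fold change of 0.66 (standard error 0.31) and of 0.50 without PBS replicate 4. PBS replicate 3 was as low in CFB as PBS replicate 4, which set CFB apart from C1R, C1S and C3. The ratio of CFB to C3 FPKM was 4.76 to 6.19 in 7 libraries and 15.9 in PBS replicate 4.

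**Figure D2:**
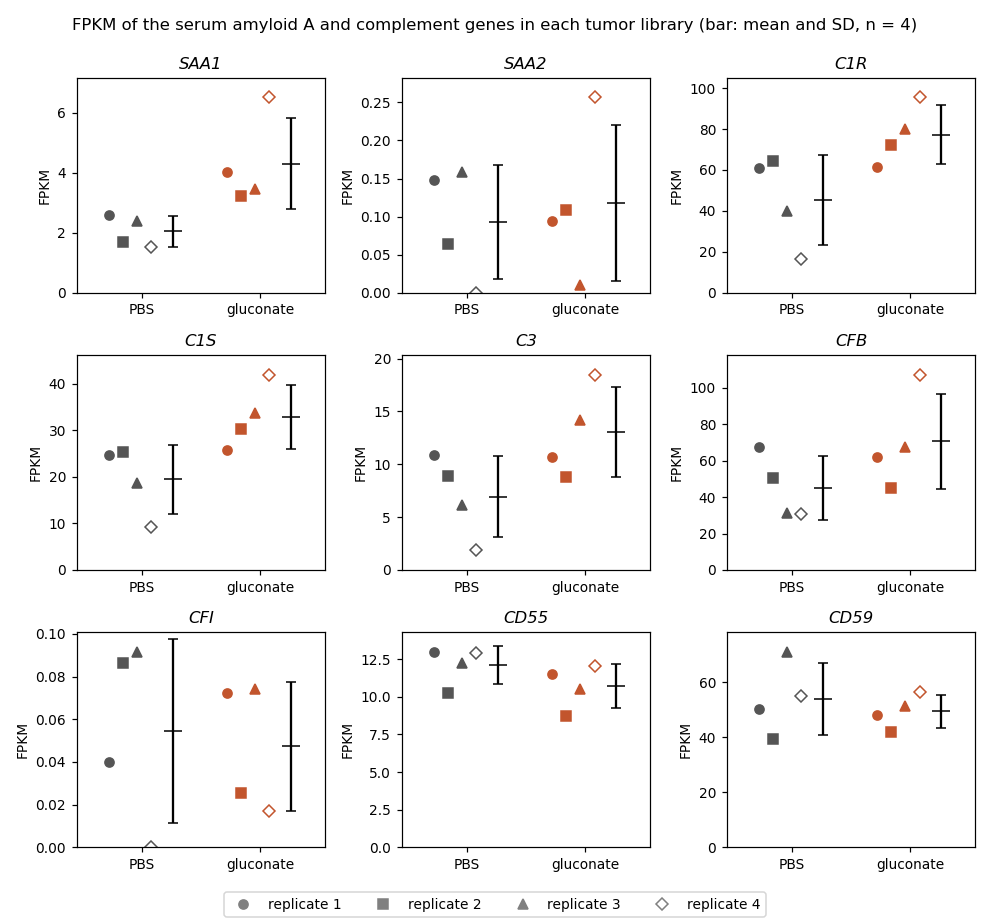
FPKM (vertical axes, each starting at 0) of the 9 genes in PBS and gluconate tumors, with a marker shape for each replicate, open diamonds for replicate 4 and bars for the mean and SD (n = 4). The gluconate diamond is the highest gluconate value in 8 of the 9 panels, and the PBS diamond is the lowest PBS value in 7.

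The 3 genes that restrain complement had slightly lower means in gluconate tumors than in PBS tumors. CFI, the gene of factor I, had 5, 11, 10 and 0 fragments in PBS replicates 1 to 4 and 8, 3, 8 and 2 fragments in gluconate replicates 1 to 4, or 0.0401, 0.0864, 0.0916 and 0 FPKM against 0.0725, 0.0256, 0.0744 and 0.0171 FPKM. The groups overlapped at this depth, with -0.04 between their mean log2(FPKM + 0.1) values and -0.24 without PBS replicate 4, where a count of 0 allows up to 0.277 FPKM. CD55 was at 13.0, 10.3, 12.3 and 12.9 FPKM in PBS tumors and at 11.5, 8.73, 10.5 and 12.1 FPKM in gluconate tumors. The log2 fold change was -0.18 (standard error 0.12) with all libraries and -0.15 without PBS replicate 4, and the groups overlapped. CD59 was at 50.2, 39.4, 71.1 and 54.9 FPKM in PBS tumors and at 48.0, 41.9, 51.4 and 56.3 FPKM in gluconate tumors. The log2 fold change was -0.10 (standard error 0.17) and -0.08 without PBS replicate 4, and it was 0.04 without PBS replicate 3, the library with the highest CD59. In contrast to C1R, C1S, C3 and CFB, both membrane regulators were within the range of the other libraries in PBS replicate 4.

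Among the 9 genes, 6 had a higher and 3 a lower mean log2(FPKM + 0.1) in gluconate tumors, with a median log2 fold change of 0.66 beside 0.07 over all 12486 genes tested. Of the 9, 7 passed the minimum mean of 0.5 FPKM, and SAA2 and CFI did not. Over all genes tested, 24, or 0.192%, were at least 2-fold higher with an unadjusted p under 0.05, and 13, or 0.104%, were at least 2-fold lower. The groups did not overlap, with gluconate higher, for SAA1 and C1S and for 2.08% of all genes tested, and with gluconate lower for 0 of the 7 and for 1.41% of all genes tested. Since the genes were chosen on this contrast, these counts are no test of them, and nothing is read from them. No gene of the 12486, that is 0, reached an adjusted p under 0.05 in limma (Benjamini-Hochberg), while 577 had an unadjusted p below that line. With limma's voom on the recovered fragments these counts were 0 and 594.

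**Figure D3:**
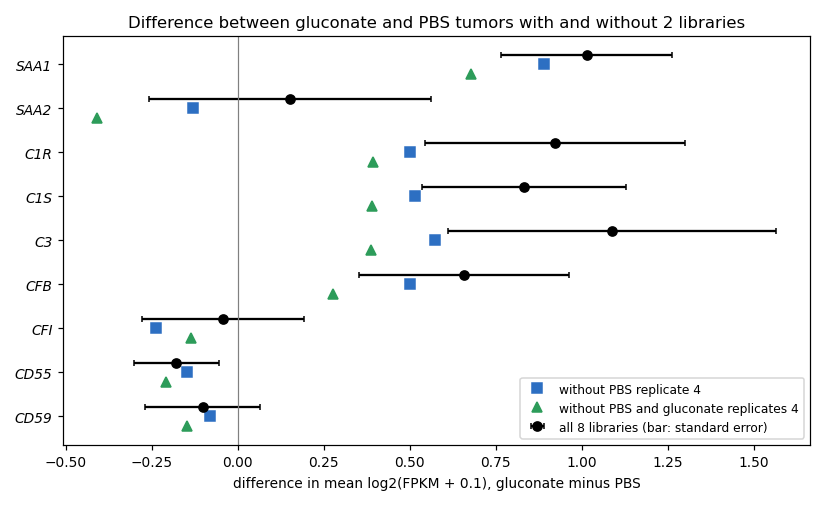
Difference in mean log2(FPKM + 0.1), gluconate minus PBS (horizontal axis), for each gene with all 8 libraries (black, bar for the standard error), without PBS replicate 4 (blue squares) and without both replicates 4 (green triangles). The values of SAA1, C1R, C1S, C3 and CFB stay above 0 in each setting, and C3 goes from 1.09 to 0.57 and 0.39.

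The size of the differences depended on the replicates 4 of both groups. Gluconate replicate 4 was the highest gluconate tumor for all genes other than CFI. Without both PBS replicate 4 and gluconate replicate 4, a choice made after the data were seen, the log2 fold changes were 0.68 for SAA1, 0.39 for C1R, 0.39 for C1S, 0.39 for C3 and 0.28 for CFB. The median over the 9 genes was then 0.28. Fewer cells of a type and less RNA per cell cannot be told apart in such bulk samples.

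**Figure D4:**
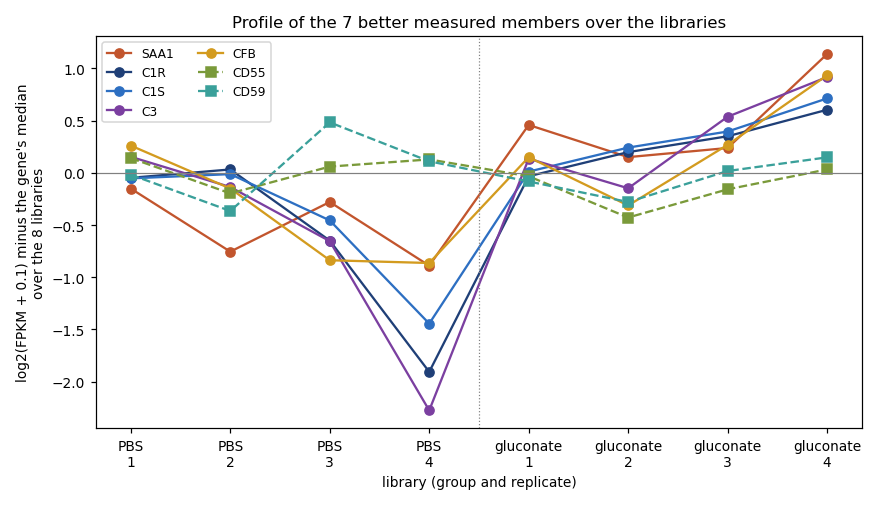
Level of the 7 genes above the minimum in each library (horizontal axis), as log2(FPKM + 0.1) minus the median of the gene over the 8 libraries (vertical axis), with solid lines for SAA1, C1R, C1S, C3 and CFB and dashed lines for CD55 and CD59. The solid lines are lowest in PBS replicate 4 and highest in gluconate replicate 4, apart from CFB, which is within 0.1 of its lowest level in PBS replicate 3 as well.

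Across the 7 libraries other than PBS replicate 4, C1R and C1S had a Pearson's r of 0.98 on the log2(FPKM + 0.1) scale, and C3 and CFB of 0.97. C1R and C1S had 0.89 and 0.90 with C3 and 0.84 and 0.83 with CFB, whereas SAA1 had 0.64 to 0.76 with these 4 genes. CD55 and CD59 had 0.66 with each other and -0.42 to 0.25 with the other 5. These are descriptions over 7 libraries that share the contrast between groups, the scaling of each library and gluconate replicate 4.
Among all genes tested, TMEM208, IL13RA1, FBXO31, RNF41 and IAH1 were most like SAA1, with r from 0.97 to 0.99 over the same 7 libraries. The genes most like C3 were YIPF2, CD63, TGFBI, HLA-DRB5 and FKBP10, with r from 0.98 to 0.99. For CFB they were TMC6, IFNB1, TH, ATG9A and MYO15B, also with r from 0.98 to 0.99. The genes named here were picked as the highest of 12486 genes over 7 libraries. Such picking alone gives high r, and no link is read from it. IFNB1 encodes interferon-beta, and TGFBI a secreted matrix protein. With PBS replicate 4 included, r fell to 0.34 for HLA-DRB5 and 0.57 for TH, while it was 0.99 for IFNB1 and 1.00 for TGFBI.

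Levels per length were then compared between the genes within each library, which the choice of the genes did not use. In order of mean log2(FPKM + 0.1), C1R came first over the 8 libraries, followed by CFB, CD59, C1S, CD55, C3, SAA1, SAA2 and CFI. This order pools both groups and depends on them in part. The mean of CD59 was above those of C1R and CFB in PBS tumors (53.9 against 45.4 and 44.9 FPKM) and below them in gluconate tumors (49.4 against 77.2 and 70.5 FPKM). Over PBS replicates 1 to 3, CD59 was at 53.6 FPKM, below C1R at 55.0 FPKM and above CFB at 49.7 FPKM. Likewise, CD55 was above C3 in PBS tumors (12.1 against 6.95 FPKM) and below it in gluconate tumors (10.7 against 13.0 FPKM), and over PBS replicates 1 to 3 it was also above C3 (11.8 against 8.62 FPKM). Of the 8 pairs of neighbors, 4 differed beyond their spread in the exact two-sided sign-flip permutation test with Benjamini-Hochberg adjustment. CD59 was above C1S in 8 of 8 libraries by 1.06 ± 0.767 (log2, SD), C3 above SAA1 in 8 of 8 by 1.54 ± 0.613, and SAA1 above SAA2 in 8 of 8 by 3.97 ± 0.582, each with an adjusted p of 0.0208 in this exact test. The unadjusted p of these pairs was 0.0078, the smallest that 8 libraries can give. C1S was above CD55 in 7 of 8 libraries by 1.09 ± 0.758 (exact permutation test, adjusted p = 0.0312). C1R and CFB, CFB and CD59, CD55 and C3, and SAA2 and CFI did not differ beyond their spread, with mean differences of 0.05 ± 0.472, 0.07 ± 0.708, 0.40 ± 1.04 and 0.36 ± 0.698. The same 4 pairs passed without PBS replicate 4, with an adjusted p of 0.0312 each in the exact permutation test.

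The rest of the complement system was mostly close to 0. Of 52 other complement genes, 39 were in the table and 9 were above the minimum, of which 0 were higher and 0 were lower by the rule of a 2-fold change with an unadjusted p under 0.05. At an unadjusted p under 0.05 alone there were also 0, with voom as well, where 3.13% of all genes tested were higher and 1.49% lower. None of the 10 listed genes of the classical and lectin pathways that act beside C1R and C1S, among them C2, C4A and C4B, reached the minimum, nor did any of the 5 of the terminal pathway. C4A and C4B are near-identical copies, so their values are uncertain. C1QA, C1QB and C1QC, the recognition subunits of C1, were not in the table. CFD, the gene of the protease that activates factor B, was at 8.57 to 11.9 FPKM in all 8 libraries with a log2 fold change of 0.01 (standard error 0.12) and of 0.03 without PBS replicate 4. SERPING1, the inhibitor of C1r and C1s, was at 8.49, 11.9, 7.92 and 2.57 FPKM in PBS tumors and at 8.64, 10.3, 10.2 and 12.1 FPKM in gluconate tumors. The log2 fold change was 0.59 (standard error 0.39) with all libraries and 0.14 without PBS replicate 4, so that it was low in the same library as its target proteases.
Among membrane regulators, CD46 had a log2 fold change of 0.15 (standard error 0.09) and SUSD4 of 0.14 (standard error 0.18), which were 0.07 and 0.28 without PBS replicate 4. CLU, the gene of clusterin, had -0.08 (standard error 0.16), which turned to 0.05 without that library. The 3 receptor genes above the minimum, which encode integrin chains, ranged from -0.48 for ITGB2 to -0.14 for ITGAX, which were -0.61 and -0.20 without PBS replicate 4. ITGAM had -0.16, which turned to 0.04 without that library. Below the minimum, the groups did not overlap for CPN2, a carboxypeptidase N subunit, which was lower in gluconate tumors at 0.0157 to 0.0403 FPKM against 0.0625 to 0.0801 FPKM. They did not overlap for THBD, the gene of thrombomodulin, either, which was higher at 0.0289 to 0.0504 FPKM against 0 to 0.0271 FPKM. These values rest on 1 to 10 fragments of CPN2 and 0 to 8 fragments of THBD in a library. Both were named because their groups did not overlap, and the share of all genes below the minimum without overlap was not counted. C4BPB, also below the minimum, had overlapping groups and a difference in mean log2 values of -1.23, and of -0.55 without PBS replicate 4. PBS replicate 4 had 1 fragment of CPN2 and 0 of THBD, and a count of 0 there allows up to 0.188 FPKM of THBD, above every gluconate value. Without it, the differences in mean log2 values were -0.36 for CPN2 and 0.25 for THBD, against -0.39 and 0.29 with it.

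Among the other acute-phase genes, the largest difference was that of LCN2, at a low level. Of 29 genes in the lists of positive and negative acute-phase proteins, 21 were in the table and 5 were above the minimum, with 0 higher and 0 lower by the rule above. At an unadjusted p under 0.05 alone, 1 was higher, SOD2, the gene of mitochondrial superoxide dismutase, and voom also gave 1. Over all genes tested, 3.13% were higher at that line in limma. SOD2 was at 10.5, 6.14, 6.71 and 6.66 FPKM in PBS tumors and at 10.1, 8.55, 9.93 and 14.9 FPKM in gluconate tumors, and the log2 fold change was 0.53 (standard error 0.21, limma with Benjamini-Hochberg adjusted p = 0.740) and 0.48 without PBS replicate 4. PBS replicate 1 lay within the gluconate values. The unadjusted p was under 0.05 in 5 of the 8 fits that leave out 1 library, and not without PBS replicate 2, PBS replicate 3 or gluconate replicate 4. PTX3, a long pentraxin made outside the liver, was at 13.5 to 16.0 FPKM in PBS tumors and 12.7 to 14.8 FPKM in gluconate tumors, and the log2 fold change was -0.07 (standard error 0.09) and -0.02 without PBS replicate 4. AHSG, the gene of fetuin-A and the 1 tested negative acute-phase gene, had 0.23 (standard error 0.26) with all libraries and -0.00 without PBS replicate 4.
LCN2 encodes lipocalin-2, which binds bacterial siderophores and is induced together with SAA1 in the acute phase. It had 3, 4, 4 and 0 fragments in PBS replicates 1 to 4 and 20, 11, 10 and 17 fragments in gluconate replicates 1 to 4. This gave 0.0802, 0.105, 0.122 and 0 FPKM against 0.605, 0.314, 0.310 and 0.485 FPKM, so that the groups did not overlap. In PBS replicate 4, a count of 0 allows up to 0.925 FPKM (3 fragments), above every gluconate value. LCN2 was below the minimum and not among the genes tested. Listed genes below the minimum were named for groups that did not overlap, and the share of all such genes without overlap was not counted. Its difference in mean log2(FPKM + 0.1) was 1.60, and 1.35 without PBS replicate 4. The groups also did not overlap for HPX, the gene of hemopexin, at 0 to 0.125 FPKM in PBS tumors and 0.134 to 0.236 FPKM in gluconate tumors. These came from 9, 4, 6 and 0 fragments in PBS replicates 1 to 4 and 15, 9, 10 and 10 fragments in gluconate replicates 1 to 4. A count of 0 in PBS replicate 4 allows up to 0.482 FPKM of HPX, above every gluconate value. Its difference in mean log2 values was 0.73, and 0.50 without that library.

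**Figure D5:**
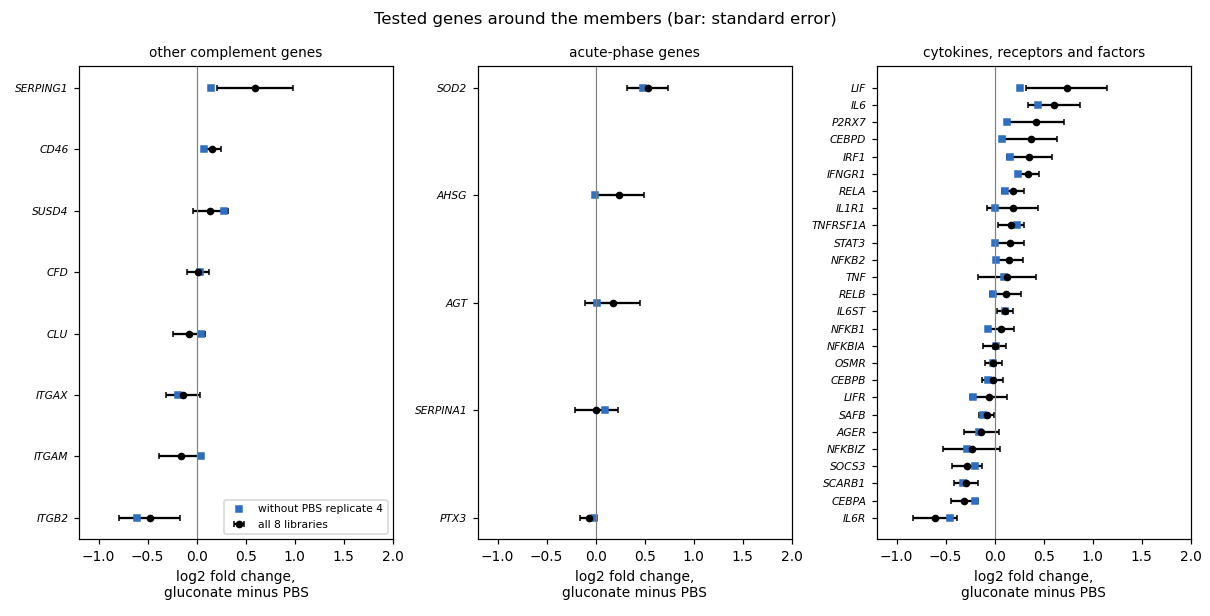
Log2 fold change, gluconate minus PBS (horizontal axes), of tested genes of the complement, acute-phase and upstream lists, with all libraries (black, bar for the standard error) and without PBS replicate 4 (blue squares). LIF, at 0.73 with all libraries and 0.26 without PBS replicate 4, and SERPING1, at 0.59 and 0.14, lie apart between the settings.

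Cytokines, receptors and transcription factors that are known to act upstream of these genes, and receptors of serum amyloid A, numbered 37, of which 35 were in the table and 27 were above the minimum. By the same 2-fold rule, 0 were higher and 0 were lower. At an unadjusted p under 0.05 alone, 2 were higher and 3 were lower, against 3 in all with voom, and all 5 had an adjusted p of 0.740 in limma with Benjamini-Hochberg adjustment. IL6, the main inducer of SAA1 in the liver, was at 12.1, 8.74, 5.92 and 5.37 FPKM in PBS tumors and at 9.32, 12.0, 9.99 and 16.4 FPKM in gluconate tumors. The log2 fold change was 0.60 (standard error 0.27) and 0.44 without PBS replicate 4, the groups overlapped, and PBS replicate 4 was lowest and gluconate replicate 4 highest, as for SAA1. The unadjusted p of IL6 was under 0.05 in 2 of the 8 fits that leave out 1 library, those without PBS replicate 1 or gluconate replicate 1. IFNGR1, a subunit of the interferon-gamma receptor, was at 13.0, 11.9, 11.7 and 9.22 FPKM in PBS tumors and at 14.2, 13.1, 14.4 and 16.0 FPKM in gluconate tumors. The groups did not overlap, with a log2 fold change of 0.34 (standard error 0.12) and of 0.24 without PBS replicate 4, and its unadjusted p was past 0.05 only without gluconate replicate 4 among these 8 fits.
IL6R, the IL-6 receptor, was at 0.883, 0.975, 1.33 and 1.67 FPKM in PBS tumors and at 0.801, 0.804, 0.764 and 0.605 FPKM in gluconate tumors. The groups did not overlap, in the direction opposite to IL6, with a log2 fold change of -0.61 (standard error 0.22) and of -0.45 without PBS replicate 4, and its unadjusted p was past 0.05 without PBS replicate 3 or gluconate replicate 4. CEBPA, a C/EBP factor, had a log2 fold change of -0.31 (standard error 0.14), and SCARB1, a lipoprotein receptor that binds serum amyloid A, of -0.29 (standard error 0.12). Without PBS replicate 4 these were -0.20 and -0.32. Their unadjusted p stayed under 0.05 in 1 and 2 of the 8 fits, CEBPA without PBS replicate 3 and SCARB1 without PBS replicate 1 or PBS replicate 4. The highest log2 fold change among the cytokines was 0.73 for LIF (standard error 0.41), which was 0.26 without PBS replicate 4. P2RX7, an ATP receptor, had 0.43 (standard error 0.28), and 0.12 without PBS replicate 4. IFNG, the gene of interferon-gamma, was not analysed here.
Without PBS replicate 4, IL6 had an r of 0.82 to 0.87 over 7 libraries with C1R, C1S, C3 and CFB and of 0.66 with SAA1. STAT3 had 0.04 to 0.30 with these 5 genes. IRF1, an IRF factor, had 0.70 to 0.81 and CEBPD, a C/EBP factor, 0.69 to 0.84 with C1R, C1S, C3 and CFB, and each had 0.36 with SAA1. These values describe the same 7 libraries as above. With PBS replicate 4 included, r with the 5 genes was 0.77 to 0.89 for IL6 and 0.53 to 0.89 for STAT3. It was then 0.61 to 0.92 for IRF1 and 0.62 to 0.95 for CEBPD. The part of any of these factors was not tested.

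Human markers of several cell types were summed in each library. Cells of the host would be mouse cells, so these human symbols cannot show whether such cells were present. Of 10 hepatocyte markers 8 were in the table, and 7 of them were below 0.5 FPKM in every library. Their sum was 0 to 1.90 FPKM in PBS tumors and 0.885 to 1.14 FPKM in gluconate tumors, so the defining markers of human hepatocytes were at or near 0. Of 12 macrophage and monocyte markers 6 were in the table, and 5 of them were below 0.5 FPKM in every library, PTPRC and CD14 included. The sum, 25.2 to 28.3 FPKM in PBS tumors and 20.0 to 27.4 FPKM in gluconate tumors, was almost all CD68.
All 10 fibroblast markers were in the table, and COL1A2, DCN, PDGFRA and THY1 were below 0.5 FPKM in every library. COL1A1, LUM and PDGFRB were at 1 FPKM or more in every library, with LUM at 1.70 to 5.18 and PDGFRB at 1.28 to 3.41 FPKM. FAP was at 0.609 to 3.34, COL3A1 at 0.230 to 2.25 and ACTA2 at 0.140 to 1.24 FPKM. The sum of this list, almost all COL1A1, was 45.5 FPKM in PBS replicate 4, 130 to 186 FPKM in the other PBS tumors and 166 to 193 FPKM in gluconate tumors. COL1A2 was at most 0.0678 FPKM, so the sum follows COL1A1 and is no measure of fibroblasts. It was lowest in the library where C1R, C1S and C3 were lowest. The epithelial sum was 1808 to 2413 FPKM in PBS tumors and 1670 to 2180 FPKM in gluconate tumors. Within it, KRT7 was at 335, 234, 185 and 124 FPKM in PBS tumors and at 306, 293, 387 and 393 FPKM in gluconate tumors, and had an r of 0.85 to 0.93 with C1R, C1S, C3 and CFB over the 7 deeper libraries. KRT7 was singled out after its values were seen, and the 2 most abundant markers of the list had differences of the opposite sign, with a log2 fold change of 0.73 for KRT7, -0.20 for KRT8 and -0.33 for KRT18. Without PBS replicate 4 these were 0.48, -0.21 and -0.31. The part of KRT7, COL1A1 and depth in these results was not tested.
The sum over 9 of 10 endothelial markers was 12.2 to 22.1 FPKM in PBS tumors and 13.1 to 15.9 FPKM in gluconate tumors. Of these markers, 5 were below 0.5 FPKM in every library, with CDH5 and CLDN5 near 0. In contrast, 2 were at 1 FPKM or more in every library, ENG at 9.99 to 16.2 FPKM and PLVAP. TIE1 was at 0.202 to 2.86 FPKM, highest in PBS replicate 3. For 5 of 7 adipocyte markers, of which CFD is also a complement gene, the sums were 16.5 to 22.6 and 16.2 to 20.4 FPKM. The 7 mesothelial markers, which share MSLN and WT1 with the epithelial list, summed to 119 to 138 FPKM in PBS tumors, 179 FPKM in gluconate replicate 4 and at least 111 FPKM in the other gluconate tumors.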

How the data were processed

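Values deposited by the authors are FPKM of 24196 gene symbols, 1 column per tumor library, from polyA RNA read in pairs of 150 bases. The labels name the build GRCh 38, and the aligner, the counting and the annotation are not given in the sources used here. Columns carry the letters C and T, read as PBS and gluconate from the study's plot of T over C, and a number, read as the replicate. The labels do not say which mouse each tumor came from, so p-values measure the spread between these libraries. Columns left unused numbered 0.

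All values (100%, tolerance 0.01) were whole multiples of the FPKM of 1 fragment, which gave fragments and depth. log2(FPKM + 0.1) was fitted with limma 3.58.1 in R 4.3.3 (eBayes with a trend, two-sided, Benjamini-Hochberg) over the 12486 genes with a mean of at least 0.5 FPKM. On this scale, the change of low genes is understated. The script was tested on simulated data. Other steps used Python 3.11.15, numpy 2.4.6, scipy 1.17.1, pandas 2.3.3 and matplotlib 3.10.9.

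The 9 genes and all lists were chosen with earlier results of these data known. Named were the 9 genes, the lowest and highest tested gene of each list, genes past the rule or without overlap, and the 5 genes most like SAA1, C3 and CFB. Of the listed genes, 2 are not reported here beyond the counts. C2, C4A, C4B, C4BPB, SERPING1, ITGAM, SOD2, IL6, IRF1, CEBPA, CEBPD and SCARB1 and markers were named after their values were seen. Alternatives were pseudocounts of 1 and 0.01, other filters and scalings, no moderation, a replicate block, each library left out, and, added after seeing the data, both replicates 4 left out and voom on the fragments.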

Additional observations from a re-analysis of the deposited data

Results flagged for a closer look

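The depth of PBS replicate 4, 3953206 fragments, lay far from that of the other PBS tumors, which had 39895393 to 46551535. The gap was 0.844 of the range of the group, above Dixon's 95% critical value for 4 values. In all, 20 groups of 4 libraries were examined, for depth and for the FPKM of the 9 genes, and 1 was past this value. Chance gives about 1 in 20.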

How the results depend on the processing

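With all libraries, 24 genes were higher and 13 lower by the rule of a 2-fold change with an unadjusted p under 0.05. The counts were 5 and 3 with a pseudocount of 1, 9 and 20 after quantile normalization, 11 and 5 without moderation, 9 and 7 with voom, 8 and 8 without both replicates 4, and 0 and 0 at an adjusted p under 0.05. Without a filter 61 were higher, and with median-ratio scaling 14. Leaving out 1 library gave 3 to 63 higher and 6 to 46 lower genes, with 3 and 8 without PBS replicate 4, 63 and 28 without PBS replicate 1, and 36 and 46 without PBS replicate 3. The cause was not tested.
The median log2 fold change of the 9 genes was 0.43 to 0.88 when 1 library was left out and 0.28 without both replicates 4. SAA1, C1R, C1S, C3 and CFB were above 0 in each alternative run, at 0.68 to 1.14, 0.39 to 1.15, 0.39 to 0.99, 0.39 to 1.38 and 0.28 to 0.88. CD55 was below 0 in each, and SAA2, CFI and CD59 changed sign in at least 1. Among other acute-phase genes, 1 was higher without a filter, LCN2, and among other complement genes 0 to 1 were higher when 1 library was left out, with 1 without PBS replicate 2. The p of IL6 was 0.102 without PBS replicate 4. Of 8 neighbor pairs, 4 passed in each setting run.
The replicate numbers are shared between groups, and the labels give no more than the number. The deviations of same-numbered libraries had correlations of -0.18, 0.08, 0.17 and -0.06, and not every library correlated best with its own. With 4 libraries per group this cannot exclude a shared block. With a replicate block, 32 genes were higher and 15 lower.
Depth limits SAA2, CFI, LCN2, HPX, THBD and CPN2, and in PBS replicate 4 SAA1.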
